A study of Danio rerio with 20 samples.

Results

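Zebrafish larvae exposed to ifosfamide at 100 µg/L were compared with larvae of the group named ERM by RNA sequencing, with 4 libraries on each side. The libraries were chosen by their labels, and every gene model whose mean level over these 8 libraries reached 1 FPKM was compared, which left 19738 of the 38718 models in the deposited table. FPKM is the number of sequenced fragments scaled to the length of the gene model and to the depth of the library. The whole study holds 20 libraries in 5 groups of 4, the others being ifosfamide at 1 µg/L and citalopram at 10 or 1000 µg/L. Larvae were exposed in 5 beakers per treatment and 4 beakers of each were sequenced, so each library was taken as 1 beaker. The labels leave ERM unexplained. For these libraries the treatment field gives ERM together with 1 µg/L and names no compound. The design text lists the group ahead of the drug doses. ERM therefore served as the reference group by its place in the design, and what its larvae received cannot be told from the labels. Strain, age and length of exposure were not given there either. The RNA came from larvae with no organ named, so that fewer cells of a type and less RNA per cell cannot be told apart in any result.

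Ifosfamide is an alkylating anticancer prodrug. In humans, cytochrome P450 enzymes of the liver hydroxylate it, and the product breaks down into a mustard that alkylates and crosslinks DNA and into acrolein, a reactive aldehyde. A side reaction on its chloroethyl chains yields chloroacetaldehyde, which is linked to its toxicity in kidney and brain. Aldehyde dehydrogenases and glutathione remove the reactive products, and crosslinked DNA is known to engage checkpoint signalling, nucleotide excision repair and the Fanconi pathway. The genes of these steps are described first, and then the genes and tissues with the clearest separation between the groups.

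Depth was 12049087 to 13897657 recovered reads per ERM library and 10699832 to 12495147 per library of ifosfamide 100 µg/L. In each group 1 library, B, was more like the other group than like its own. Across the tested gene models, library B of ifosfamide 100 µg/L had correlations of 0.973, 0.969 and 0.968 with ERM A, C and E, against 0.924, 0.950 and 0.954 with libraries A, C and D of its own group. ERM library B had correlations of 0.965, 0.965 and 0.967 with ifosfamide 100 µg/L A, C and D, against 0.957, 0.960 and 0.956 with ERM A, C and E. The files do not tell whether the 2 B libraries were exchanged, and an exchange would alter every group difference below. Each library was kept in the group that its label gives, so exposed B (of ifosfamide 100 µg/L) and ERM B below mean the libraries labelled so. Values without them are given beside many results, and a result shown without such values may also depend on them.

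**Figure D1:**
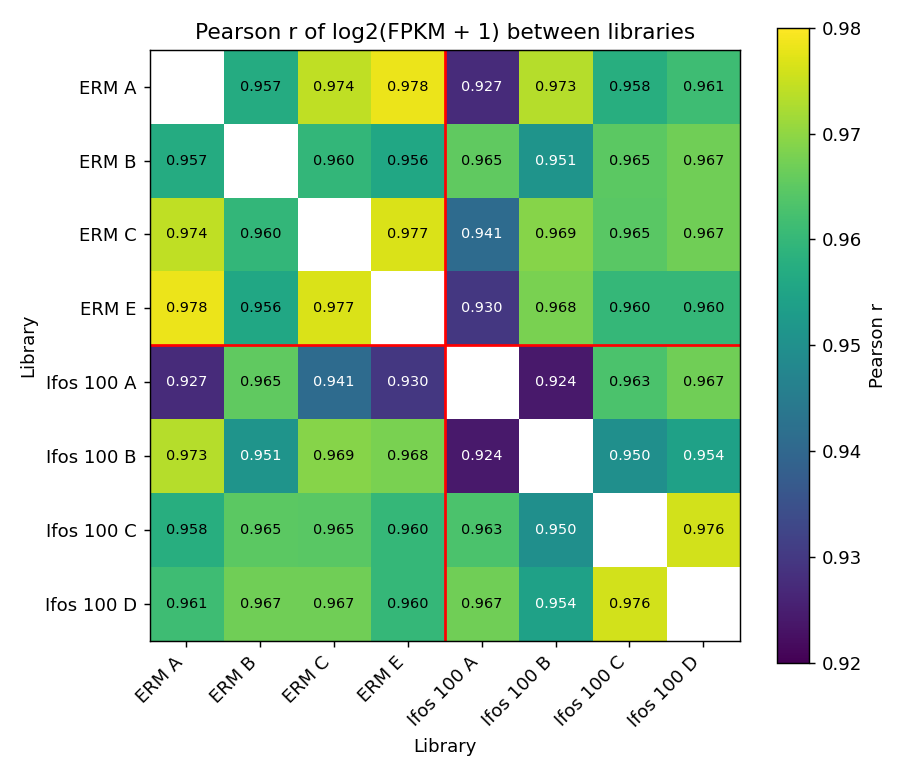
Pearson correlation of log2(FPKM + 1) over the 19738 tested gene models between each pair of the 8 libraries, with both axes listing libraries and red lines parting the groups. Ifosfamide 100 µg/L library B has 0.973 with ERM A and 0.924 with ifosfamide 100 µg/L A, and ERM B has its highest value, 0.967, with ifosfamide 100 µg/L D.

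No gene model passed the test. limma was fitted to log2(FPKM + 1) of ERM and both ifosfamide groups, and a model counted as passed at a Benjamini-Hochberg adjusted p under 0.05. Of 19738 models 0 passed (0%), and the smallest adjusted p was 0.226. An unadjusted p under 0.05 was reached by 1588 models (8.05%), of which 622 were higher at 100 µg/L (3.15%) and 966 were lower (4.89%). With voom on the recovered reads 0 models passed and 1596 had an unadjusted p under 0.05. The 4 libraries of each group did not overlap in 831 models (4.21%), with 332 higher (1.68%) and 499 lower (2.53%). The log2 difference was beyond 1 in either direction in 76 models, 52 higher and 24 lower. The median 95% interval, not adjusted for the number of models, reached 0.36 log2 units to either side. Smaller differences in single genes were mostly not detectable. After adjustment over 19738 models much larger ones did not pass either, such as 2.03 for krt96 with an adjusted p of 0.528. The median difference over all models was -0.01, and it was 0.10 when libraries were scaled to their total reads, given below as on total reads. The difference was below 0 in 51.6% of models on the deposited scale. That share is the background over all models for counts of signs on this scale in the gene lists below. For counts of signs on total reads no such share was computed, and the median of 0.10 over all models is the background there. Among the 9012 models with a mean of at least 5 FPKM the median difference was -0.07. The share over all models is therefore an uncertain background for lists of highly expressed genes.

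The count of passing genes depended on the B libraries. Without ifosfamide 100 µg/L B, 7 models passed, 3 higher and 4 lower. They comprised mfsd4ab, c1ql2, polr1d, mid1 and zgc:198419, together with the noncoding model RF00133 and 1 model without annotation. With limma's weights per library, which gave ERM B 0.507 and ifosfamide 100 µg/L B 0.349, 223 models passed, 96 higher and 127 lower. With both B libraries left out 1658 passed, 1092 higher and 566 lower. That alternative was chosen after the correlations were seen, and it removes from each group the library most like the other, so its count supports nothing by itself. Without ERM B alone 0 models passed. Leaving out exposed B alone likewise removes the exposed library most like ERM, and the weights count both B libraries less. Adjusted p values and counts from these alternatives, here and below, therefore support nothing by themselves.

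Genes known to respond to DNA damage had differences of both signs. mdm2, a ubiquitin ligase gene induced by DNA damage in mammals, was at 7.09, 6.62, 7.06 and 5.75 FPKM in ERM A, B, C and E and at 5.66, 5.71, 3.79 and 5.27 FPKM in ifosfamide 100 µg/L A to D, called the exposed libraries from here on. All 4 exposed libraries lay below all 4 ERM libraries, although the nearest pair, ERM E and exposed B, was close. On the log2(FPKM + 1) scale it differed by -0.33 ± 0.12 (SE), exposed minus ERM, with an adjusted p of 0.612 from limma. Differences below are on this scale and in this direction, and ± gives the SE. cdkn1a, which encodes the cell cycle inhibitor p21, was at 6.32, 3.43, 5.39 and 3.86 FPKM in ERM and at 3.23, 4.08, 5.07 and 5.13 FPKM at 100 µg/L, and the groups overlapped. Its log2 difference was -0.08 with a 95% interval of -0.45 to 0.29, and it was 0.03 with scaling to total reads. ccng1, phlda3 and gadd45aa, other genes known to be induced by damage, had log2 differences of -0.22, -0.29 and -0.15, with intervals that all included 0. gadd45ga, a relative of gadd45aa, was at 4.83, 3.003, 4.31 and 5.53 FPKM in ERM and at 6.81, 4.59, 5.496 and 5.903 FPKM at 100 µg/L. Its groups overlapped, and the difference of 0.32, the highest of the list, had an interval of -0.10 to 0.74. Of the 47 genes listed under damage response and checkpoint, 36 gene models were tested, and 16 had a positive and 20 a negative difference. Their median was -0.02 on the deposited scale, beside -0.01 over all models. With scaling to total reads it was 0.11, beside 0.10 over all models, and 23 of 36 were positive. It was -0.05 without exposed B, -0.06 without ERM B and -0.13 without both. Of the 27 tested models of the apoptosis machinery 14 were positive and 13 negative, with a median of 0.02. That median was -0.17 without ERM B, -0.03 without exposed B, -0.12 without both and 0.13 with scaling to total reads.

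**Figure D2:**
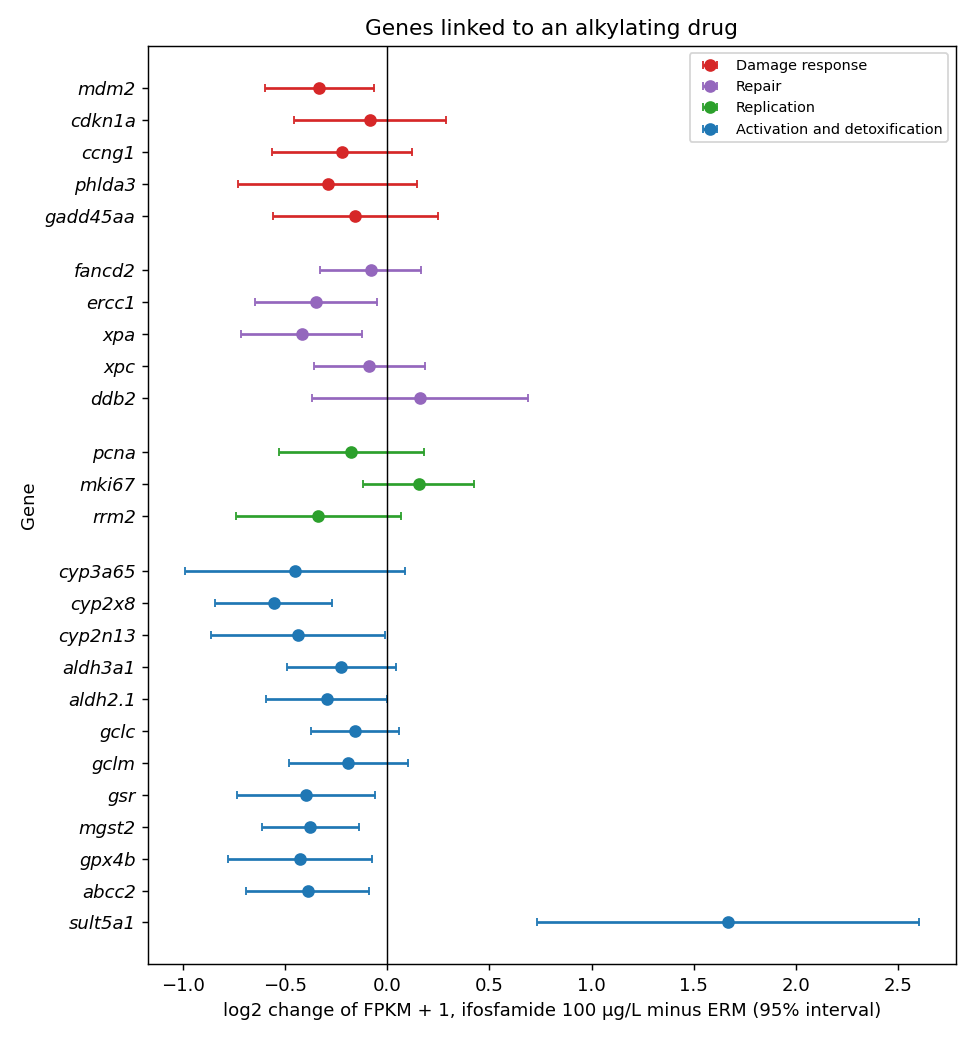
Difference in mean log2(FPKM + 1) between ifosfamide 100 µg/L and ERM (horizontal axis) for genes linked to an alkylating drug (vertical axis), with points at the estimate and bars over the 95% interval from limma. The 5 damage response genes shown lie between -0.33 and -0.08, most detoxification genes shown lie to the left of 0, and sult5a1 lies to the right at 1.67. Some genes, among them xpa, cyp2x8, mgst2 and sult5a1, were named for a small p in their list. The panel therefore does not stand for the lists, and gadd45ga, at 0.32, is not shown.

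DNA repair genes were near their ERM levels, with xpa and ercc1 lowest relative to them. xpa, which verifies the lesion in nucleotide excision repair, was at 2.21, 1.502, 1.88 and 1.497 FPKM in ERM and at 1.15, 0.919, 1.43 and 0.806 FPKM at 100 µg/L. The groups did not overlap, and the log2 difference was -0.42 ± 0.14 with an adjusted p of 0.612. ercc1, a subunit of the nuclease that cuts beside crosslinks, was at 8.38, 8.395, 8.83 and 7.15 FPKM in ERM and at 5.41, 6.71, 5.196 and 7.78 FPKM at 100 µg/L. Exposed library D lay inside the ERM range, and the difference was -0.35 ± 0.14 with an adjusted p of 0.612. fancd2, the central protein of the Fanconi pathway, differed by -0.08 with an interval of -0.33 to 0.17. xpc, which recognises distorted DNA, differed by -0.09 with an interval of -0.36 to 0.18. With scaling to total reads these differences of fancd2 and xpc were both 0.01. ddb2, a damage sensor in mammals, was at 0.464, 1.44, 3.08 and 1.03 FPKM at 100 µg/L against 1.09, 0.792, 1.35 and 1.15 FPKM in ERM. Its positive difference of 0.16 came from exposed library C and was -0.11 without it. In the whole list of 73 crosslink and excision repair genes, 40 models were tested, 13 were positive and 27 negative, and the median was -0.08, or 0.01 with scaling to total reads and -0.16 without both B libraries. brca2 and mgmt had mean levels of 0.883 and 0.775 FPKM and were not tested.

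Markers of DNA replication and cell division had differences of both signs. pcna, the replication clamp, was at 25.9, 19.5, 29.2 and 30.4 FPKM in ERM and at 16.98, 28.9, 22.7 and 24.2 FPKM at 100 µg/L, with overlapping groups and a difference of -0.18. mki67, a marker of dividing cells, was at 1.503, 1.58, 1.88 and 2.05 FPKM in ERM and at 2.16, 1.87, 2.14 and 2.04 FPKM at 100 µg/L, with a difference of 0.15. rrm2, the small subunit of ribonucleotide reductase, has 2 gene models in the table. The one on chromosome 20 was at 1.59, 1.61, 1.43 and 2.22 FPKM in ERM and at 1.15, 1.25, 1.11 and 1.04 FPKM at 100 µg/L. Its groups did not overlap, yet the difference of -0.34 had an interval of -0.74 to 0.07 and an adjusted p of 0.614. The other rrm2 model differed by -0.58 to -0.12 over the main fit and the alternatives. Over the 28 tested replication and mitosis models 8 were positive and 20 negative, with a median of -0.09, which was 0.00 with scaling to total reads, -0.17 without exposed B and -0.18 without both B libraries.

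Genes listed for drug activation and for detoxification had mostly negative differences on the deposited scale, with a minority positive. cyp3a65, a cytochrome P450 of the family that hydroxylates ifosfamide in humans, was at 843, 638, 718 and 747 FPKM in ERM and at 523, 869, 298 and 612 FPKM at 100 µg/L. Exposed library B was the highest of all 8 libraries and library C the lowest, and the difference was -0.45 with an interval of -0.99 to 0.09. cyp2x8, another P450, was at 8.88, 7.38, 7.67 and 5.66 FPKM in ERM and at 4.34, 5.79, 4.03 and 4.62 FPKM at 100 µg/L. The groups met at 1 pair, exposed B and ERM E, and the log2 difference was -0.56 ± 0.13 with an adjusted p of 0.555. cyp2n13 differed by -0.44, with exposed library B above every ERM library. Of 43 tested models in the P450 and drug activation list, 11 were positive and 32 negative, with a median of -0.12. With scaling to total reads 20 of the 43 were positive and the median was -0.02, and it was -0.19 without exposed B and -0.22 without both B libraries. The list median per library lay at -0.13, 0.03, -0.32 and -0.07 log2 units from the ERM mean in exposed A to D.

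Among enzymes that remove aldehydes and glutathione conjugates, aldh3a1 and aldh2.1, both aldehyde dehydrogenases, differed by -0.22 and -0.29, each with overlapping groups. mgst2, a membrane-bound glutathione transferase, was at 6.803, 6.79, 7.04 and 8.87 FPKM in ERM and at 5.600, 5.55, 4.75 and 5.86 FPKM at 100 µg/L. Every exposed library was below every ERM library, and the difference was -0.38 ± 0.11 with an adjusted p of 0.602. gsr, which keeps glutathione reduced, was at 6.26, 6.45, 5.39 and 5.600 FPKM in ERM and at 3.19, 5.505, 4.48 and 4.11 FPKM at 100 µg/L, with exposed library B inside the ERM range and a difference of -0.40. gclc and gclm, the subunits of the enzyme that starts glutathione synthesis, differed by -0.16 and -0.19, with intervals of -0.37 to 0.06 and -0.48 to 0.10. abcc2, an exporter of glutathione conjugates, differed by -0.39. sult5a1, a cytosolic sulfotransferase, was at 0.805, 0.391, 1.696 and 0.4505 FPKM in ERM and at 4.87, 7.79, 2.97 and 3.86 FPKM at 100 µg/L. Its groups were apart, with exposed library B highest, and the log2 difference was 1.67 ± 0.43 with an adjusted p of 0.584. That difference was the highest of the list, and the part of sult5a1 in handling this drug was not tested. Over the 62 tested models of the aldehyde and glutathione list 12 were positive and 50 negative, with a median of -0.24. Lower with an unadjusted p under 0.05 from limma were 12 of the 62, against 4.89% of all models. On total reads 18 were positive and the median was -0.13.

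Iron storage and peroxide defence genes were among those with the smallest p. zgc:198419, named fthl28 in the reference table of gene names and related to ferritin heavy chains, lies at chr3:32105175-32106672 of GRCz11 (ENSDARG00000076221). It was at 43.9, 56.2, 66.3 and 54.2 FPKM in ERM and at 21.4, 33.04, 23.3 and 23.2 FPKM at 100 µg/L. All exposed libraries were below the ERM range, with library B the highest of them. Its log2 difference was -1.10 ± 0.18 and the adjusted p was 0.226. Without exposed library B, the exposed library most like ERM, these were -1.23 and 0.0399, which adds no support by itself. zgc:109934, a second model of the same list, was at 28.4, 30.3, 49.4 and 45.2 FPKM in ERM and at 18.9, 27.7, 19.9 and 18.6 FPKM at 100 µg/L, again with no overlap and with a difference of -0.80. Those values are of model ENSDARG00000094210, and a second model of that name, ENSDARG00000113150, had overlapping groups. It was at 0.952, 4.44, 1.54 and 4.94 FPKM in ERM and at 0.865, 2.68, 3.05 and 0.522 FPKM at 100 µg/L, a difference of -0.48 with an interval of -1.5015 to 0.54. Ferritin-like genes form a multigene family in this fish, so reads may be shared among copies.

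prdx1 (ENSDARG00000058734, chr2:6104378-6115688), a peroxiredoxin that breaks down hydrogen peroxide, was at 7.81, 9.42, 8.32 and 11.3 FPKM in ERM and at 5.803, 5.44, 6.07 and 5.42 FPKM at 100 µg/L. The exposed libraries were tightly grouped below the lowest ERM library, exposed B included. The log2 values differed by -0.60 ± 0.12, with an adjusted p of 0.357. prdx4 and gpx4b, also peroxide-removing enzymes, differed by -0.41 and -0.43, and in both exposed library B was within the ERM range. hmox1a, the heme oxygenase often used as a marker of oxidative stress, differed by 0.18 with an interval of -0.32 to 0.67. In the list of Nrf2 targets and redox defence 30 models were tested, 5 were positive and 25 negative, and the median was -0.27, or -0.13 with scaling to total reads. Lower with an unadjusted p under 0.05 from limma were 11 of the 30, against 4.89% of all models.

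Inducible heat shock genes were uneven within ERM. hsp70l, an inducible chaperone gene, was at 3.19, 12.6, 5.12 and 16.4 FPKM in ERM A, B, C and E and at 3.56, 1.19, 2.42 and 1.55 FPKM at 100 µg/L. ERM B and E were high, while ERM A was below exposed library A. The difference was -1.53 ± 0.39 with an adjusted p of 0.584. hsp70.3 was at 3.87, 27.7, 10.2 and 38.7 FPKM in ERM and at 4.400, 1.48, 3.84 and 2.16 FPKM at 100 µg/L, in the same order of ERM libraries. hsp70.1 and hsp70.2 differed by -1.55 and -1.77 and had the same 2 high ERM libraries. These copies are close in sequence and their counts are uncertain as separate genes. In the wider heat shock list of 41 tested models 7 were positive and 34 negative, with a median of -0.16, or -0.04 with scaling to total reads.

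As a list, liver genes lay below the ERM mean in exposed A, C and D and near it in exposed B. Of 73 tested models in the list of plasma proteins and liver metabolism 70 had a negative difference, none passed, and the median was -0.31, or -0.18 with scaling to total reads, when 11 were positive. The list median lay at -0.41, 0.06, -0.43 and -0.39 log2 units from the ERM mean in exposed A to D, and at 0.07, 0.03, -0.13 and 0.04 in ERM A, B, C and E. Summed over the list, FPKM was 10510 to 12290.0 in ERM, 7809 to 7951 in exposed A, C and D, and 12030.0 in exposed B. Without exposed B the list median was -0.42.

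agxtb (ENSDARG00000018478, chr2:22676743-22688651), an aminotransferase that removes glyoxylate, was at 131, 149, 119 and 182 FPKM in ERM and at 68.1, 97.8, 86.98 and 89.2 FPKM at 100 µg/L. It separated the groups in all 8 libraries, and the log2 difference was -0.75 ± 0.15 with an adjusted p of 0.357. uroc1 and ftcd both act in the breakdown of histidine. uroc1, urocanate hydratase, was at 15.6, 19.8, 16.2 and 16.5 FPKM in ERM and at 11.1, 12.4, 10.98 and 11.3 FPKM at 100 µg/L, without overlap and with exposed B the highest of its group. Its difference was -0.53 ± 0.11 with an adjusted p of 0.357. ftcd, which passes the histidine-derived formimino group to folate, was at 45.8, 36.3, 42.1 and 49.4 FPKM in ERM and at 24.03, 36.2, 24.8 and 27.8 FPKM at 100 µg/L, and here exposed B nearly met ERM B. Its difference was -0.61 ± 0.15 with an adjusted p of 0.5703.

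The bile acid hydroxylase genes cyp7a1 and cyp8b1 were lower at 100 µg/L. They were named for a small p, and in their cholesterol list 11 of 28 tested models were positive and 17 negative, with a median of -0.03. cyp7a1 (ENSDARG00000069018, chr2:22150134-22152797), the rate-limiting enzyme of bile acid synthesis, was at 55.6, 55.7, 56.4 and 64.4 FPKM in ERM and at 26.6, 44.7, 18.4 and 37.3 FPKM at 100 µg/L. The ERM values were tight apart from library E, and the exposed values were spread below them. The gene differed by -0.92 ± 0.24 log2 units, with an adjusted p of 0.584. cyp8b1 (ENSDARG00000053068, chr2:3435888-3437862), the sterol 12-alpha-hydroxylase that sets the type of bile acid made, was at 9.995, 10.2, 10.3 and 11.9 FPKM in ERM and at 4.602, 7.603, 3.64 and 7.59 FPKM at 100 µg/L. Exposed A and C were lowest, B and D were alike, and none reached the ERM range. The difference was -0.81 ± 0.19 with an adjusted p of 0.547. Neither gene passed, and without exposed B the adjusted p values were 0.108 and 0.105.

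Gluconeogenic genes pck1 and g6pca.2, which catalyse the first committed step of glucose synthesis and its final release, differed by -0.70 and -0.54. pck1 was at 814, 547, 641 and 751 FPKM in ERM and at 341, 650.5, 341 and 408 FPKM at 100 µg/L, so that exposed B lay among the ERM values and the other 3 lay well below. g6pca.2 was at 73.1, 74.2, 77.9 and 92.7 FPKM in ERM and at 61.6, 69.00, 40.5 and 49.95 FPKM at 100 µg/L, with no overlap. tdo2b, which opens the ring of tryptophan, differed by -0.44 without overlap, and etfb, an electron carrier of mitochondrial fat oxidation, by -0.50, also without overlap. The fatty acid list had 11 positive and 39 negative of 50 tested models, with a median of -0.17, and 22 positive with a median of -0.04 on total reads. Glycolysis and gluconeogenesis had 12 positive and 38 negative of 50, with a median of -0.22, and 19 positive with a median of -0.09 on total reads. Without both B libraries the latter median was -0.35.

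**Figure D3:**
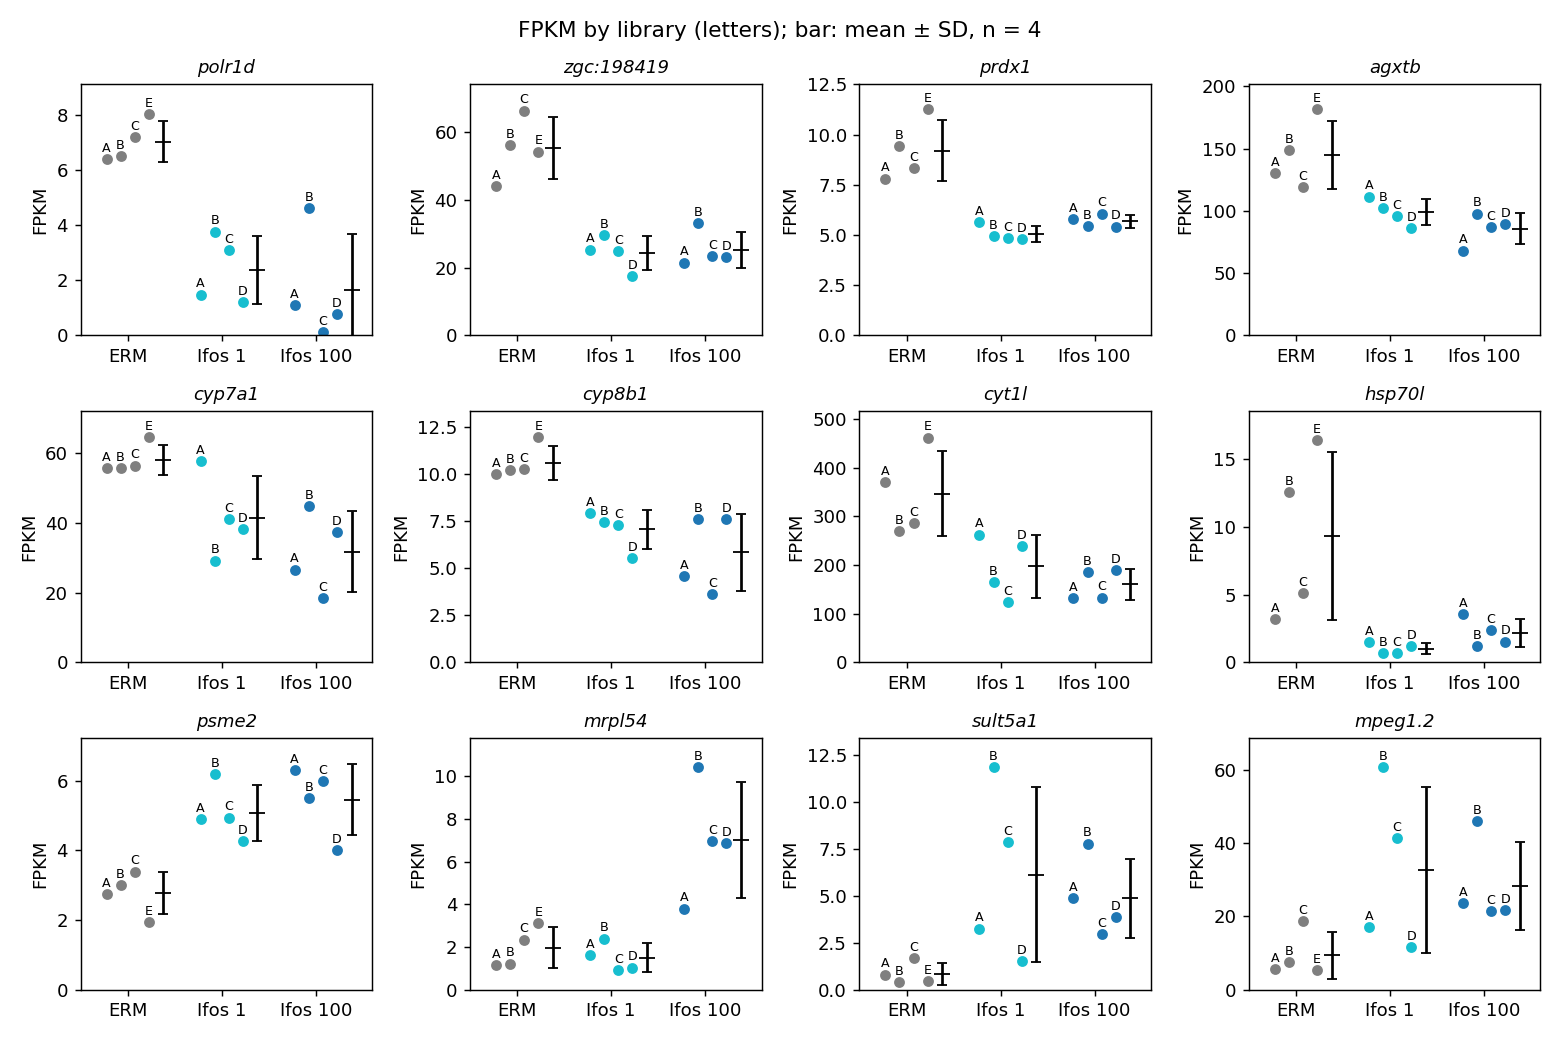
FPKM of 12 genes (vertical axes, linear, from 0) in each library of ERM, ifosfamide 1 µg/L and ifosfamide 100 µg/L (horizontal axes), with letters naming the library and bars giving the mean ± SD of 4 libraries, truncated at 0 for polr1d. Exposed libraries lie below ERM for zgc:198419 and prdx1 at both doses, mrpl54 is higher at 100 µg/L only (3.797, 10.4, 6.97 and 6.87 FPKM), and hsp70l is spread from 3.19 to 16.4 FPKM within ERM.

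Genes of ribosome production and translation had mostly negative differences, led by an RNA polymerase subunit. polr1d (ENSDARG00000037570, chr14:9077314-9085349), a subunit shared by RNA polymerases I and III, was at 6.37, 6.503, 7.18 and 8.02 FPKM in ERM and at 1.09, 4.602, 0.116 and 0.764 FPKM at 100 µg/L. Exposed A, C and D were near the bottom of the scale, and exposed B lay between them and ERM. These levels rest on 48 to 67 reads per ERM library and 1 to 37 per exposed library. polr1d differed by -1.87 ± 0.40 log2 units with an adjusted p of 0.408. Without exposed B the difference was -2.32 with an adjusted p of 0.0399, under the same limit as for zgc:198419. nip7, needed for pre-ribosome maturation, was at 10.8, 9.74, 11.1 and 11.6 FPKM in ERM and at 5.09, 8.798, 7.73 and 7.02 FPKM at 100 µg/L, without overlap and with a difference of -0.55. Of 59 tested models of ribosome biogenesis and RNA polymerases 5 were positive and 54 negative, with a median of -0.23, which was -0.10 on total reads with 14 positive and -0.37 without both B libraries.

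Cytosolic ribosomal protein genes were negative in 78 of 81 tested models, with a median of -0.33, or -0.19 with scaling to total reads. Per library the list lay at -0.52, 0.02, -0.39 and -0.41 log2 units from the ERM mean in exposed A to D. Nuclear-encoded genes of oxidative phosphorylation were negative in 74 of 76, with a median of -0.28, or -0.14 on total reads, and lay at -0.49, 0.05, -0.33 and -0.37 in the same libraries. In both lists exposed B was near the ERM mean, and without it the medians were -0.44 and -0.39. rps19, a ribosomal protein of the small subunit, was at 488, 411, 450.4 and 478 FPKM in ERM and at 283, 434, 313 and 319 FPKM at 100 µg/L, a difference of -0.45 with exposed B inside the ERM range. cox8a, a subunit of cytochrome oxidase, differed by -0.48 without overlap. The 13 genes encoded in the mitochondrial genome had a median of -0.09, or 0.05 with scaling to total reads and -0.20 without exposed B. Both nuclear lists hold short genes. After a correction of each library for gene length their medians were -0.29 and -0.24. The slope of each library's deviation from the mean level on log2 gene length was -0.015, 0.012, -0.021 and -0.028 in ERM A, B, C and E. In exposed A to D it was 0.051, -0.006, 0.027 and 0.037. Each B library thus lay toward the other group in this trend with gene length as well, and its cause was not tested.

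mrpl54 (ENSDARG00000071468, chr22:15719347-15720347), a protein of the mitochondrial ribosome, went the other way. It was at 1.14, 1.22, 2.35 and 3.13 FPKM in ERM and at 3.797, 10.4, 6.97 and 6.87 FPKM at 100 µg/L. All exposed libraries lay above ERM, with B highest and A lowest, on 9 to 27 reads per ERM library and 33 to 88 per exposed library. Its difference was 1.43 ± 0.28 log2 units, with an adjusted p of 0.357.

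Keratins had differences of both signs. cyt1l and cyt1, type I keratins of the outer epidermis, were lower at 100 µg/L. cyt1l was at 369, 269, 287 and 461 FPKM in ERM and at 132, 186, 133 and 189.6 FPKM at 100 µg/L, with no overlap, a log2 difference of -1.10 ± 0.24 and an adjusted p of 0.498. cyt1 averaged 1408 ± 197 FPKM (SD, n = 4) in ERM and 886 ± 149 at 100 µg/L, a difference of -0.67, and krtt1c19e differed by -0.74, both without overlap. krt96, another keratin, was at 3.14, 7.27, 11.7 and 4.12 FPKM in ERM and at 27.1, 27.00, 41.9 and 17.5 FPKM at 100 µg/L. The lowest exposed library was above the highest ERM library, and the difference was 2.03 ± 0.46 with an adjusted p of 0.528. Over 47 tested models of keratins and epidermis 14 were positive and 33 negative, and the median was -0.13, or 0.01 with scaling to total reads, -0.24 without exposed B and -0.27 without both B libraries. Keratin genes of this kind are a multigene family with similar copies.

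Embryonic globins were lower in the exposed libraries. hbae3, an alpha globin, was at 89.7, 138, 136 and 151 FPKM in ERM and at 69.4, 75.7, 65.1 and 45.6 FPKM at 100 µg/L, with exposed B the highest of its group and no overlap. In log2 units it differed by -0.995 ± 0.23, with an adjusted p of 0.532. hbbe1.1, a beta globin, was at 131, 189.9, 184 and 229 FPKM in ERM and at 106, 134, 82.5 and 74.7 FPKM at 100 µg/L, with 1 crossing between exposed B and ERM A and a difference of -0.89. In the globin and red cell list 6 of 28 tested models were positive and 22 negative, with a median of -0.20, and 12 were positive with a median of -0.07 on total reads. The list lay at -0.14, -0.14, -0.15 and -0.18 in exposed A to D, so library B did not stand apart here. Summed FPKM was 472.7 to 662.7 in ERM and 323.2 to 445.9 at 100 µg/L. Globin copies also share sequence.

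Among other lower genes, mfsd4ab, a transporter of the major facilitator family, was at 9.28, 9.46, 9.67 and 9.49 FPKM in ERM and at 4.38, 8.23, 3.58 and 5.77 FPKM at 100 µg/L. ERM was very tight, exposed B was nearest to it, and the difference was -0.74 ± 0.17 with an adjusted p of 0.547. chia.3, an acidic chitinase, was at 19.02, 16.96, 24.7 and 15.8 FPKM in ERM and at 11.7, 15.6, 8.43 and 10.4 FPKM at 100 µg/L, without overlap and with a difference of -0.69. A gene model of the PCP4 family, marked as 1 of many copies, differed by -0.53, and zgc:110249 by -0.74. The smallest unadjusted p in the whole comparison, 1.38e-05, belonged to mir199-3a, at 4.07, 3.56, 4.11 and 1.86 FPKM in ERM and at 0, 0, 0 and 0.836 FPKM at 100 µg/L. This model is a microRNA hairpin counted in a poly(A) library, and it rests on 2 to 5 reads per ERM library and 0 to 1 per exposed library.

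Some immune genes were among the higher ones, and the immune lists did not all lie on one side. psme2 (ENSDARG00000033144, chr12:13319132-13331980), a subunit of the proteasome activator that interferon induces in mammals, was at 2.75, 2.997, 3.39 and 1.95 FPKM in ERM and at 6.32, 5.495, 5.98 and 4.01 FPKM at 100 µg/L. The lowest exposed library, D, was above every ERM library, and the log2 difference was 0.77 ± 0.16 with an adjusted p of 0.357. By contrast 39 of the 41 tested models of the proteasome list were negative, with a median of -0.18, or -0.05 on total reads and -0.33 without both B libraries.

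ifi35, an interferon-induced gene, was at 3.03, 2.12, 3.36 and 2.698 FPKM in ERM and at 4.53, 6.17, 5.15 and 4.49 FPKM at 100 µg/L, without overlap. mxc, an antiviral dynamin-like gene of a family with several copies, was at 0.472, 0.986, 1.32 and 0.999 FPKM in ERM and at 2.08, 4.46, 2.54 and 1.82 FPKM at 100 µg/L, with exposed B highest. Their differences were 0.68 and 0.91, with adjusted p of 0.596 and 0.596. irf1b, a transcription factor of the interferon response, has 2 gene models in the table that went opposite ways. The model ENSDARG00000043249 was at 2.76, 2.63, 3.06 and 2.83 FPKM in ERM and at 6.85, 6.62, 5.98 and 4.79 FPKM at 100 µg/L, and the model ENSDARG00000110357 was at 46.3, 35.6, 35.1 and 38.5 FPKM in ERM and at 22.9, 42.6, 27.2 and 23.5 FPKM at 100 µg/L. Their differences were 0.88 and -0.44. The second model had the higher level in every library, and exposed B lay within its ERM range. The first model alone therefore does not give the direction of this gene. Over the interferon list 24 of 34 tested models were positive and 10 negative, with a median of 0.18. Higher without overlap were 8 of the 34, against 1.68% of all models. Exposed B was the highest library, at 0.16, 0.46, 0.04 and 0.07 in A to D, and without it the median was 0.07. The interferon median was 0.10 without ERM B, 0.01 without both B libraries and 0.28 on total reads.

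Inflammation and acute phase genes were positive in 15 and negative in 30 of 45 tested models, with a median of -0.03. On total reads 32 were positive and the median was 0.09, and it was -0.09 without exposed B and 0.00 without ERM B. cxcl8a, a chemokine that attracts neutrophils, was at 1.48, 1.62, 2.89 and 1.81 FPKM in ERM and at 1.12, 1.16, 0.540 and 1.12 FPKM at 100 µg/L. Every exposed library lay below ERM, and the difference was -0.56 ± 0.17 with an adjusted p of 0.612. In the same list stat3 and nfkb2 differed by 0.62 and 0.56, each with overlapping groups.

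Macrophage and neutrophil markers were positive in 24 of 31 tested models, with a median of 0.15, or 0.04 without exposed library B, 0.02 without both B libraries and 0.22 on total reads. mpeg1.2, a perforin-like gene of macrophages, was at 5.705, 7.52, 18.8 and 5.41 FPKM in ERM and at 23.7, 46.1, 21.4 and 21.8 FPKM at 100 µg/L. All exposed libraries were above ERM, with exposed B standing far above the rest and ERM C nearest from below. mpeg1.2 differed by 1.59 ± 0.48 log2 units, with an adjusted p of 0.612. grna and grn2, granulins, differed by 0.48 and 0.87, without overlap for grna and with overlapping groups for grn2. Negative were 7 of the 31 tested models. Without overlap 3 of the 31 were higher and 1 was lower, against 1.68% and 2.53% of all models. Summed FPKM of the list was 2097 to 2597 in ERM and 1738 to 3161 at 100 µg/L, so the total did not follow the count of signs. Of the lymphocyte and thymus list only 6 models were tested, 3 positive and 3 negative. Lysosomal genes were positive in 33 of 55 tested models, with a median of 0.07. That median was 0.04 without exposed B, 0.03 without ERM B, -0.01 without both and 0.20 on total reads, where 42 were positive. ctsc, a lysosomal protease, and hexb, a hexosaminidase, differed by 0.41 and 0.46, and smpd1, the acid sphingomyelinase, by 0.49, each without overlap.

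Other higher genes had no common list. adgrf6, an adhesion receptor, was at 9.06, 10.3, 11.1 and 7.697 FPKM in ERM and at 17.2, 17.3, 18.4 and 15.8 FPKM at 100 µg/L, and mgll, which breaks down monoacylglycerols, was at 16.3, 20.3, 20.04 and 11.9 FPKM in ERM and at 32.1, 28.2, 29.1 and 25.9 FPKM at 100 µg/L. In both the groups were clearly apart, exposed B included, with differences of 0.79 and 0.74 and adjusted p of 0.555 and 0.583. c1ql2, a secreted protein of synapses, was at 1.19, 1.04, 0.669 and 0.868 FPKM in ERM and at 3.34, 1.22, 2.48 and 2.73 FPKM at 100 µg/L, where exposed B barely cleared ERM A. The differences of rtn4rl1a, a Nogo receptor relative, cbfa2t3, a transcriptional corepressor, frmpd1b and vwa10.1 were 0.73, 0.73, 0.51 and 1.21. The model with the smallest p among the higher ones has no annotation and lies on an unplaced scaffold. It was at 2.48, 2.68, 2.34 and 2.38 FPKM in ERM and at 11.2, 12.9, 9.299 and 7.27 FPKM at 100 µg/L, well apart in all libraries, with a difference of 1.66 and an adjusted p of 0.226. A second model without annotation, on an alternate scaffold, differed by 1.49. rgs2, a regulator of G protein signalling from the list of immediate early genes, was at 4.02, 3.101, 5.55 and 3.68 FPKM in ERM and at 5.88, 8.05, 9.76 and 6.44 FPKM at 100 µg/L, without overlap.

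Tissue lists split into lower and higher sets. Skeletal muscle was negative in 95 of 117 tested models with a median of -0.23, and cardiac muscle in 27 of 32 with a median of -0.22. On total reads the medians were -0.10 and -0.09, with 39 and 7 models positive. actc1a (the model on chromosome 19), a muscle actin, was at 91.5, 47.3, 59.1 and 81.3 FPKM in ERM and at 39.7, 47.2, 36.6 and 34.9 FPKM at 100 µg/L, a difference of -0.77 with exposed B and ERM B almost equal. A second model of that name differed by -0.65 to -0.06 over the main fit and the alternatives. casq1b, the calcium-binding protein of the muscle store, and mybpc3, a heart thick filament protein, differed by -0.47 and -0.35, both without overlap. Collagen and matrix genes were negative in 53 of 61 with a median of -0.23, or -0.10 on total reads and -0.42 without both B libraries. col1a2, a chain of type I collagen, differed by -0.49. Genes of the pronephros tubule transport list, of interest because the drug harms human kidney tubules, were negative in 24 of 32. Their median was -0.17, and on total reads 13 were positive with a median of -0.06. slc26a1, an anion exchanger, was at 2.86, 2.89, 2.91 and 2.89 FPKM in ERM and at 2.33, 2.09, 1.35 and 1.93 FPKM at 100 µg/L, without overlap. slc22a7a, an organic anion transporter, differed by -0.38 with exposed B within the ERM range. pax2a, of the same list, was higher, with a difference of 0.29, an interval of 0.02 to 0.57 and overlapping groups.

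Neuronal and synaptic genes were positive in 43 and negative in 26 of 69 tested models with a median of 0.13. It was 0.23 without exposed B and 0.26 on total reads, where 56 were positive. syt1a, of the machinery that releases neurotransmitter, differed by 0.38. slc32a1, the vesicular transporter of inhibitory transmitters, was at 15.05, 18.9, 13.8 and 14.1 FPKM in ERM and at 19.3, 20.8, 20.1 and 19.9 FPKM at 100 µg/L, without overlap. In this list 1 of the 69 tested models was higher without overlap and 1 was lower without overlap. Over all models these shares were 1.68% and 2.53%. Lens and photoreceptor lists were spread within both groups: the lens list lay at 0.46, -0.47, 0.01 and 0.04 in ERM A, B, C and E and at -0.79, -0.75, -0.05 and 0.28 in exposed A to D, and opsins and phototransduction at -0.06, -0.77, 0.39 and 0.45 and 0.00, -0.48, 0.37 and 0.34. Exocrine pancreas was at -0.28, 0.42, -0.52 and -0.34 in exposed A to D, with exposed B the highest of all.

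**Figure D4:**
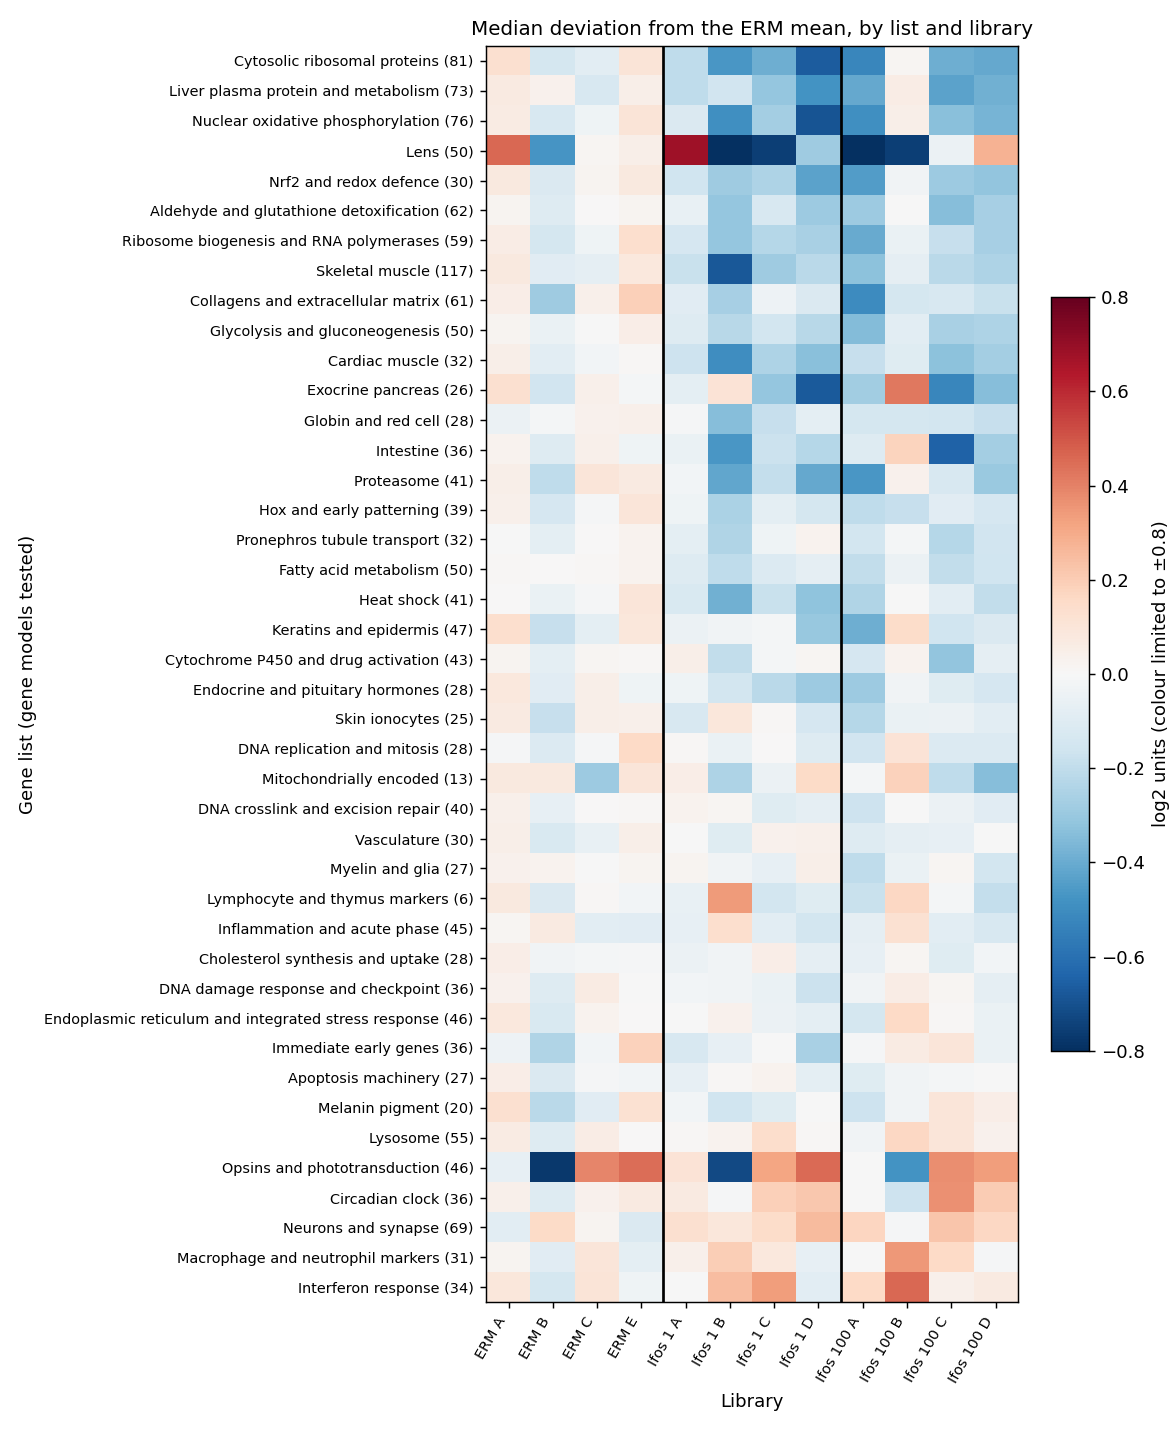
Median over the tested members of each gene list (vertical axis, number tested in parentheses) of the deviation of log2(FPKM + 1) from the ERM mean, in each of 12 libraries (horizontal axis), as colour limited to 0.8 log2 units either way. Ribosomal, liver and oxidative phosphorylation lists are below the ERM mean in exposed A, C and D and near 0 in exposed B, and the interferon list is highest in exposed B at 0.46.

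The lower dose was compared with the higher one in the same fit. Between ifosfamide 100 and 1 µg/L 0 of 19738 models passed (0%), the smallest adjusted p rounded to 1, and 402 had an unadjusted p under 0.05 (2.04%). With voom 0 passed and 348 had an unadjusted p under 0.05. Both doses were set against the same ERM libraries, so their differences from ERM share that error and are given only side by side. For polr1d the difference from ERM was -1.32 at 1 µg/L and -1.87 at 100 µg/L, and for zgc:198419 it was -1.16 and -1.10. For prdx1 these values were -0.75 and -0.60, for hsp70l -2.14 and -1.53, and for sult5a1 1.74 and 1.67. uroc1 had -0.18 at 1 µg/L and -0.53 at 100 µg/L. mrpl54 was at 1.63, 2.39, 0.903 and 1.03 FPKM at 1 µg/L, which overlapped the ERM range, and differed between the doses by 1.66 in log2 units. ugt1b1, a glucuronosyltransferase, averaged 1.61 ± 0.373 FPKM (SD, n = 4) with the higher dose and 2.78 ± 0.266 FPKM with the lower one, a difference between doses of -0.55, while the ERM mean was 2.59 ± 0.3999 FPKM. None of these dose differences passed. As lists, the medians from ERM at 1 and 100 µg/L were -0.42 and -0.33 for cytosolic ribosomal proteins. They were -0.40 and -0.28 for nuclear oxidative phosphorylation, -0.35 and -0.23 for skeletal muscle, and -0.31 and -0.31 for liver. Collagens had -0.13 and -0.23, and the interferon list had 0.11 and 0.18. The lower medians of the ribosomal, oxidative phosphorylation, muscle and liver lists were therefore seen at both doses.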

How the data were processed

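RNA sequencing of zebrafish larvae was analysed from the table the authors deposited, which holds FPKM (fragment counts divided by gene length and a depth factor) with a column for each library. Per the submitters' processing notes, fastp, HISAT2, featureCounts and DESeq2 were used on the GRCz11 build, with neither versions nor roles stated. Per the labels' protocols, TRIzol was used for extraction, and directional libraries were made from poly(A) RNA. FPKM multiplied by gene length moves in steps of 1 read within a library. In these steps 100% of values came within 0.01 of a whole read, and the reads recovered so gave the depth. The depth factors of the table matched size factors by the median of ratios, so FPKM was compared as deposited. Such scaling assumes that most genes do not differ.

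The model was limma (version 3.58.1, run in R 4.3.3) with trended variances, fitted to log2(FPKM + 1). It had a mean for ERM and for each ifosfamide group, over 12 libraries, with 9 residual degrees of freedom. The pseudocount of 1 understates differences of low genes. Tests were two-sided, with Benjamini-Hochberg adjustment over the 19738 models tested, of which 15831 were protein-coding and 3299 had no Ensembl identifier. The citalopram groups were left out of the fit because an earlier analysis of the series found a much larger spread at 1000 µg/L. The p-values measure the spread between these libraries, each of which was taken as 1 beaker. The fit was tested on simulated counts with the same fixed dispersion for all models and no library that stood apart from its group. That test checks the code and does not show how the fit behaves with libraries like the present ones.

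Named genes were, per direction, the 12 annotated models with the smallest p whose groups did not overlap and up to 2 placeholder models. Added were up to 4 members of each of 43 gene lists with the smallest p. Further genes were fixed for a link to alkylating drugs or for their values in an earlier report on these data. Models that passed only in an alternative (mid1, RF00133 and the like), and the choice of which list members to describe, came after the values were known. The members and lists were chosen with earlier results of these data known. Of 2274 listed symbols 139 were not found and 49 were matched by gene ID. Alternatives covered the pseudocount, filter, scaling, gene length, libraries in the fit, weights, voom on recovered reads, a replicate block and each library left out. Sequences were not used here, and a few genes are not reported here. Plots used matplotlib 3.10.9 (Python 3.11.15).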

Additional observations from a re-analysis of the deposited data

Results flagged for a closer look

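Among 192 sets of 4 libraries, each the ERM or the exposed values of a named gene, 8 held a library that stood past Dixon's 95% critical gap on the log2 scale, and chance alone gives about 1 set in 20. In ERM library E, cyp8b1 was at 11.9 FPKM beside 10.00 to 10.3 in the other ERM libraries. ERM E was also high for cyp7a1, at 64.4 beside 55.6 to 56.4, and for mgst2, at 8.87 beside 6.79 to 7.04. In exposed library B, mpeg1.2 was at 46.1 beside 21.4 to 23.7, hexb at 49.1 beside 35.1 to 36.6, and zgc:109934 at 27.7 beside 18.6 to 19.9. rps27a was at 184 in ERM library C beside 103 to 113. mir199-3a was at 0.836 in exposed library D and at 0 in the other 3 exposed libraries.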

How the results depend on the processing

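The count of models past the threshold against ERM was 0, and it was 1 with no filter beyond FPKM above 0 (RF00001), 1 with only the 8 libraries compared, 223 with weights per library and 1658 with library B of both groups left out, an alternative chosen after seeing the data. With one library left out at a time it ranged from 0 to 7, and the 7 came without ifosfamide 100 µg/L B. It was 1 with the replicate block below and 0 in the other alternatives. Between the doses it was 0, and 2 with no filter. Of the 24 genes named for their p, 18 were among the 223 and 20 among the 1658. These genes were chosen by p from the same libraries, so this overlap adds no support.

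Same-lettered ERM and exposed libraries deviated from their group means with correlations of -0.390 for A, -0.438 for B and 0.0169 for C. No pairing by letter was seen in these values, while ERM B with exposed A had 0.544. The shared letters are few and the B libraries are in doubt, so this check cannot settle whether libraries were paired. With the letter as a replicate block 1 model passed, zgc:172053, and the second model of zgc:109934 was at 0.015 on the log2 scale.

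Of 96 named values 5 changed sign in some alternative. With scaling to total reads cdkn1a was at 0.033, fancd2 at 0.0097 and xpc at 0.0085. With libraries left out in turn cdkn1a ranged from -0.20 to 0.044 and ddb2 from -0.11 to 0.38. The cause was not tested. Past the threshold in some alternative were 50 of the 96, and 22 of 43 list medians moved by more than the spread between libraries. Depth limits genes that rest on few reads, polr1d, mrpl54 and mir199-3a among them. c1ql2 had 7 to 10 reads per ERM library and 11 to 31 per exposed library. cxcl8a had 12 to 29 and 5 to 11, and zgc:110249 had 26 to 29 and 5 to 14. In ERM the lowest counts of sult5a1, rtn4rl1a and mxc were 10, 12 and 13 reads.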
